A study of Mus musculus with 8 samples.

Results

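The genes described here encode members of the lectin chaperone and disulfide isomerase families of the endoplasmic reticulum (ER). Pdilt, Calr3 and Clgn are the forms known for expression in the testis, and Canx, Calr, Pdia3 and P4hb are their broadly expressed relatives. They were found by gene symbol in the deposited table of normalized counts, which gave 7 of 56324 gene models, 3 testis forms and 4 broad forms. All 7 passed the filter on low values, 10 or more normalized counts in 4 or more libraries. In spermatids 2 of the testis forms were far more abundant than in spermatocytes, Pdilt by 42.4-fold and Calr3 by 28.0-fold in mean normalized count. The third, Clgn, was already among the most abundant transcripts in spermatocytes, and neither it nor any broad form passed the test. Of all models tested, 32.5% were called higher in spermatids and 29.8% lower.

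Glycoproteins that enter the ER carry a glucose-tagged sugar chain. Calnexin, a membrane lectin encoded by Canx, and calreticulin, its soluble relative encoded by Calr, bind this chain while the protein folds. They work with the disulfide isomerase ERp57, the product of Pdia3, which acts on cysteines of the bound protein. P4hb encodes protein disulfide isomerase, which also serves as a subunit of prolyl 4-hydroxylase. Male germ cells add calmegin (Clgn, a calnexin relative), calsperin (Calr3, a calreticulin relative) and PDILT (a disulfide isomerase relative known to bind calmegin). Mice that lack any of these testis forms are known to have males that are infertile or nearly so, whose sperm lack mature ADAM3, a membrane protein needed for passage through the oviduct.

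The libraries were made from germ cells of C57BL/6 mice aged 12 weeks, separated by sedimentation (Sta-put). Every library carried the genotype label Sam68 -/-, for an RNA-binding protein encoded by Khdrbs1. There were 4 libraries of spermatocytes, cells in meiosis, and 4 of spermatids, the haploid cells that follow. The series text also names Sam68+/+ mice, which were not analysed here, so every value is for the knockout label and no effect of genotype was measured. The labels do not tie libraries to animals, so the replicates may be technical and a p-value speaks only of the spread among these libraries.

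Recovered reads numbered 49000266 to 93975960 per library. Khdrbs1 had 3421 to 4985 normalized counts in spermatocytes, above the 625 to 1129 of spermatids, which does not check the genotype label, since the deleted part of the gene is not given in the sources used here. The cell labels were checked with marker lists. Summed spermatid markers were at 689283 to 847840 in the spermatid group against 25242 to 40696 in the spermatocyte group, and all 11 were called higher. Summed spermatocyte markers went from between 212570 and 259384 to between 36502 and 53764, and 5 of 9 were called lower. Piwil1 was the largest part of the spermatocyte sum, with means of 136863 in spermatocytes and 4256 in spermatids. Sycp1 (log2 fold change 0.10), Sycp3 (-0.86), Hormad1 (-1.02) and Hormad2 (-0.46) were not called, and their groups overlapped. Within the spermatocyte group, library 3 had the most Sertoli cell marker RNA, 160957 against 31381 to 76420 in the other libraries. Library 4 had little RNA of the synaptonemal complex gene Sycp1, 1653 normalized counts against 12680 to 26690. The spermatocyte markers Sycp2 (13356), Sycp3 (3303), Hormad1 (1395), Hormad2 (554) and, by little, Spo11 (9591) were also lowest of the group in library 4. Piwil1 (166551), Mlh3 (1257) and Pou5f2 (14909) were highest there, so the markers did not shift in 1 direction. Each main result was therefore also computed without spermatocyte libraries 3 and 4. In bulk RNA, fewer cells of a type and less RNA per cell cannot be told apart.

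Upstream sequences of 6 members were matched in the RefSeq promoter table on GRCm38.p6 (mm10), as windows of the 250 bases before the RefSeq start. That of Pdilt, which rose, is printed beside those of Canx and Calr, which did not pass the test, to show how the letters in front of the members differ. Runs are 5′ to 3′ on the gene's own strand, the minus strand for all, and only bases before both the RefSeq and the GENCODE M21 start are printed, at chr7:119523490-119523732 for Pdilt, chr11:50325674-50325923 for Canx and chr8:84846935-84847181 for Calr. The Pdilt run lies in an intron of Acsm5, which is annotated on the other strand. Capitals mark matches, on either strand, to the motif letters given after the sequences.
Pdilt: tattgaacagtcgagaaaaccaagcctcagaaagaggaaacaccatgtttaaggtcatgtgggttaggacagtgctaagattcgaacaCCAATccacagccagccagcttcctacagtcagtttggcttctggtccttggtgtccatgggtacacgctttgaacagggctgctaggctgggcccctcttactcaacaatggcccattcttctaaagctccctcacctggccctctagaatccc
Canx: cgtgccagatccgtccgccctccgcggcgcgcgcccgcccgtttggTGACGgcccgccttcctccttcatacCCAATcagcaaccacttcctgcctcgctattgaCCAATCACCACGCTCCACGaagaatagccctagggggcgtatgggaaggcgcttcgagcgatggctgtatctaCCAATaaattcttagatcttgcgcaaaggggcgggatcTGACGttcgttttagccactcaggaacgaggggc
Calr: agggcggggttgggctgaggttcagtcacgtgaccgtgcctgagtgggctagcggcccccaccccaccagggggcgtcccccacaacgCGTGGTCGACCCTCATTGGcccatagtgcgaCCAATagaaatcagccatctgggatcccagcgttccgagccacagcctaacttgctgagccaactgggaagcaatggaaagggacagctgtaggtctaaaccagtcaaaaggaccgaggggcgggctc

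The ER stress response element, CCAAT and CCACG with 9 bases of any kind between them, is known from promoters of ER chaperones. Its letters were found in the windows of Canx, at bases -145 to -127 before the start, and of Calr, at bases -162 to -144 on the other strand. Only 37 of the 32851 promoter windows of the table (0.113%) held it. It was not found in the windows of Pdilt, Calr3, Pdia3 or P4hb. The CCAAT box, CCAAT, which is also the start of the stress element, was in all 6 windows, and in 33.8% of all windows. The core of the cAMP response element, TGACG, was in the windows of Calr3, Canx, Pdia3 and P4hb and in 17.8% of all windows. The windows of Calr3 and Pdia3 reach into their own genes as GENCODE draws them, by 92 and 127 bases, and these stretches hold their TGACG and CCAAT letters. The Calr3 window also overlaps the first exon of its neighbour 1700030K09Rik. The full element, TGACGTCA, held by 1.55% of windows, was in none of the 6. GTTGCC, letters of the site of RFX factors, which are known regulators of spermatid genes, was in the window of Calr3, and in 10.4% of all windows. The TATA box letters TATAAA, held by 12.4% of windows, were in none of the 6. The Pdilt window held 3 CpG dinucleotides, 0.19 of the number its C and G content predicts, while the Canx window held 24, a ratio of 1.10. The ratio was 0.63 for Calr3, 0.54 for Calr, 1.02 for Pdia3 and 0.90 for P4hb, against a median of 0.37 over all windows. These matches describe letters in a window, and nothing was measured about a factor bound there.

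Spermatids held far more Pdilt RNA than spermatocytes. The gene lies on the minus strand of chromosome 7, from 119486587 to 119523482 of mm10, and its longest annotated transcript has 12 exons. Its normalized counts were 1050, 1401, 1324 and 928 in libraries 1 to 4 of spermatocytes, and 34264, 50017, 59430 and 55885 in those of spermatids. The lowest spermatid library was thus far above every spermatocyte library, and 66.4% of all tested models also had no overlap between the groups. The mean went from 1176 ± 224 to 49899 ± 11123 (± SD, n = 4 per cell type), a log2 fold change of 5.40 on the log2(normalized count + 1) scale (95% interval 4.93 to 5.86, limma adjusted p = 1.3e-09). Among all tested models Pdilt moved from percentile 77.4 of mean normalized count to percentile 99.1. The annotation gives 305 exonic bases shared with opposite-strand models, and the counting's use of strand is not given in the sources used here. Acsm5, the protein-coding gene among these, had at most 39.2 normalized counts in any library. Its deposited model starts at 119526240, beyond the end of the Pdilt model, so this count does not measure the shared bases. Of the shared bases 201 belong to Gm37518, whose level was not examined.

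Calr3 rose as well, from a lower level. It lies on the minus strand of chromosome 8, from 72424183 to 72443779, with 9 exons. Its normalized counts were 258, 184, 322 and 224 in the spermatocyte libraries and 5181, 5424, 8095 and 9012 in the spermatid libraries. Spermatid libraries 3 and 4 were the highest, libraries 1 and 2 lay close together below them, and no spermatid library came near the spermatocyte range. The mean went from 247 ± 58.3 to 6928 ± 1916 (± SD, n = 4 per cell type), with a log2 fold change of 4.79 (95% interval 4.26 to 5.32, limma adjusted p = 6.4e-09). Its lowest library still held 188 reads, so the spermatocyte counts were above the floor of 3 reads. The spermatocyte libraries also held spermatid marker RNA, 25242 to 40696 summed counts against 689283 to 847840 in the spermatid libraries. What part spermatid RNA had in the spermatocyte counts of Calr3 and Pdilt was not tested. Their fold changes thus describe the libraries, not pure cells. The neighbouring gene 1700030K09Rik, annotated next to the start of Calr3, did not pass the test, with a log2 fold change of -0.07 (limma adjusted p = 0.70) and 2322 to 3335 normalized counts in all 8 libraries.

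Clgn was abundant in both cell types. It lies on the plus strand of chromosome 8, from 83389854 to 83428041, with 15 exons. Its normalized counts were 135805, 151445, 105097 and 109838 in spermatocytes and 84008, 151694, 133061 and 128249 in spermatids. The groups overlapped, and spermatid library 1 was the lowest of all 8. The log2 fold change was -0.03, and on the deposited scaling its 95% interval from -0.50 to 0.43 leaves out a change of 2-fold in either direction (limma adjusted p = 0.90). By mean normalized count Clgn was at percentile 99.9 of tested models in spermatocytes, and at 99.8 in spermatids. The testis forms therefore differed among themselves: the intervals of Pdilt and Calr3 both lay wholly above that of Clgn.

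**Figure D1:**
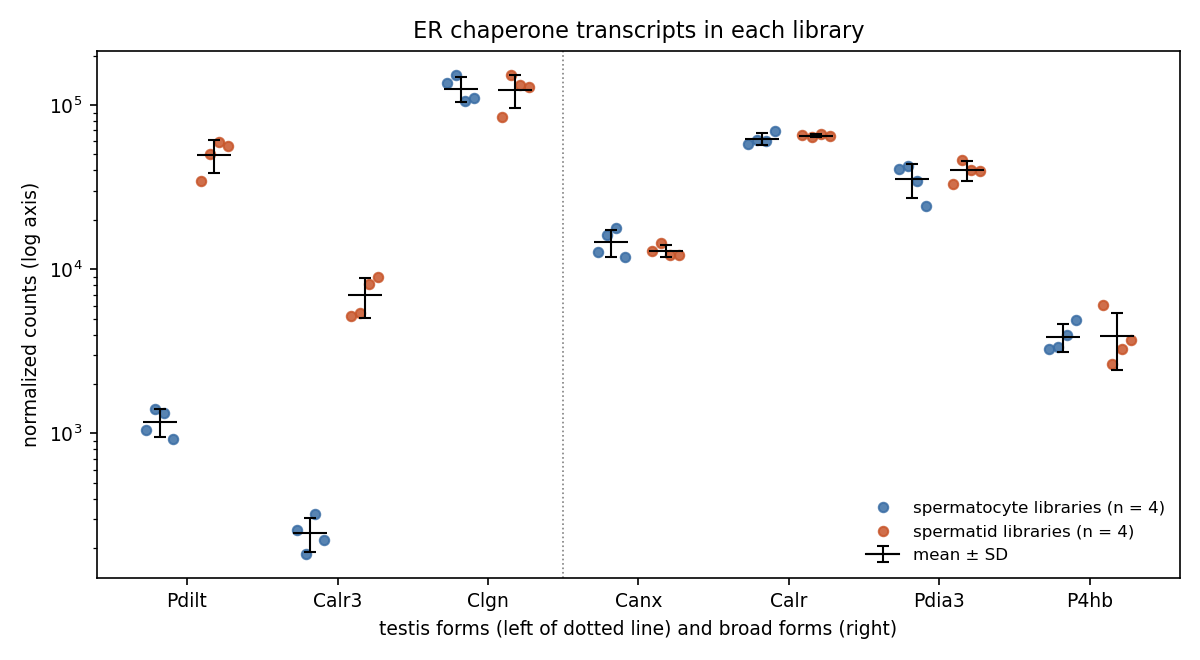
Normalized counts (log axis) of the 7 chaperone genes, with each point a library, blue for spermatocytes and orange for spermatids, and black marks for mean ± SD (n = 4 each). Pdilt and Calr3 separate the cell types, as 66.4% of all tested models do, while the points of Clgn, Canx, Calr, Pdia3 and P4hb overlap.

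None of the 4 broad forms passed the test. Canx (chromosome 11, 50293955 to 50325673, minus strand) had 12802, 16141, 17782 and 11911 normalized counts in spermatocytes and 12976, 14457, 12259 and 12154 in spermatids. The spermatid values lay within the spermatocyte range, and the log2 fold change was -0.16 (95% interval -0.54 to 0.22, limma adjusted p = 0.42). Calr (chromosome 8, 84841850 to 84846931, minus strand) had 57557, 61230, 60342 and 69785 in spermatocytes and 65834, 63872, 66199 and 64755 in spermatids. It was the steadiest member, with a coefficient of variation of 8.48% in spermatocytes and 1.62% in spermatids. Its log2 fold change was 0.07 (95% interval -0.25 to 0.39, limma adjusted p = 0.68).

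Neither broad isomerase differed beyond its spread. Pdia3 (chromosome 2, 121413902 to 121438684, plus strand) had 40797, 42425, 34247 and 24216 normalized counts in spermatocytes and 33125, 46558, 40459 and 39503 in spermatids. Its groups overlapped, with spermatocyte library 4 the lowest and spermatid library 2 the highest, and the log2 fold change was 0.20 (95% interval -0.25 to 0.64, limma adjusted p = 0.41). The annotation gives 18 exonic bases of Pdia3 shared with Catsper2 on the other strand. Catsper2 had means of 29750 normalized counts in spermatocytes and 38171 in spermatids, and was not called. P4hb (chromosome 11, 120560300 to 120572936, minus strand) had 3274, 3363, 3979 and 4903 in spermatocytes and 6058, 2657, 3274 and 3716 in spermatids. Spermatid libraries held both its lowest and its highest value, and its log2 fold change of -0.03 had the widest interval, -0.57 to 0.51 (limma adjusted p = 0.91). On the deposited scaling each of these 4 intervals, like that of Clgn, leaves out a change of 2-fold. Intervals under other scalings are not given here, so this does not extend to them.

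A gene was called at a limma adjusted p below 0.05, with Benjamini-Hochberg adjustment over all 28735 tested models, and a log2 fold change of at least 1 in size. By this rule 2 of the 7 members were called higher and 0 lower. Of all tested models 32.5% were called higher and 29.8% lower, and the median log2 fold change was -0.01, so the share of members called does not stand out from the table. The 5 other members had 95% intervals that included 0, so none had an unadjusted p below 0.05, and edgeR and DESeq2 on recovered reads also called 0 lower. The size of the rises is less common: 2.34% of tested models had a larger log2 fold change than Pdilt, and 7.41% a larger one than Calr3. With libraries scaled to equal total reads, which shifts the median of all models to -0.44, the log2 fold changes of the 5 uncalled members lay between -0.24 for Pdia3 and -0.60 for Canx. They stayed under the fold threshold, while the limma adjusted p fell below 0.05 for Clgn (0.0063), Canx (0.012) and Calr (0.021). Canx was also at -0.74 with quantile normalization (limma adjusted p = 0.0047) and at -0.51 after GC correction (limma adjusted p = 0.0088), not called in either. With equal total reads Pdilt (4.96) and Calr3 (4.36) were still called.

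**Figure D2:**
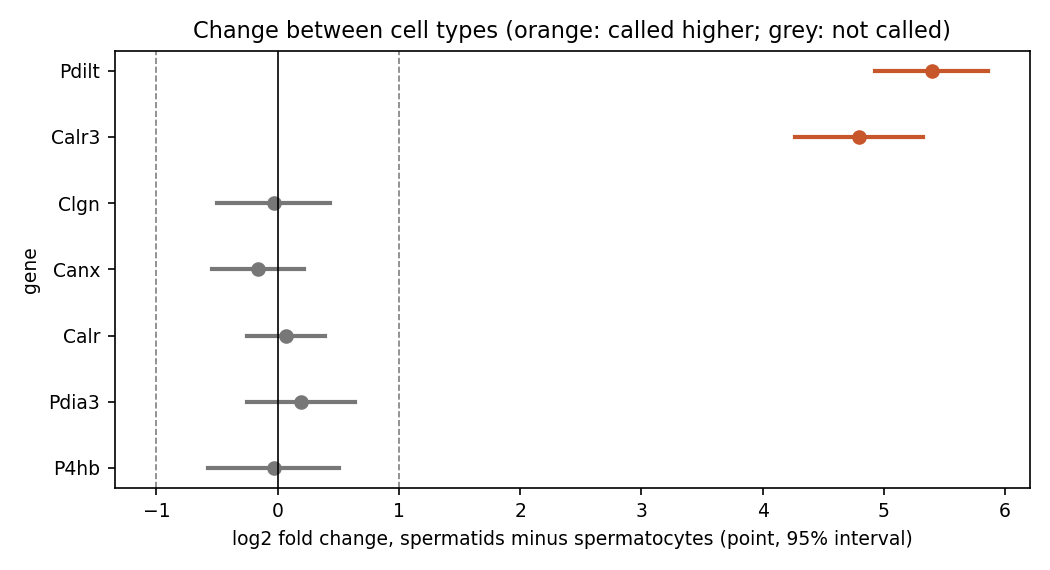
Log2 fold change of each chaperone gene, spermatids minus spermatocytes, on the log2(normalized count + 1) scale, with 95% intervals from limma over 4 libraries each. The intervals of Pdilt (4.93 to 5.86) and Calr3 (4.26 to 5.32) lie beyond the dashed line at 1, and the other 5 include 0 and stay between the dashed lines.

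Ratios of a testis form to its broad relative compare transcripts inside the same library, so a common scaling factor drops out. The differences of 4 such log2 ratios were each put to an exact permutation test, two-sided, over 4 against 4 libraries, whose smallest p is 0.0286, with Benjamini-Hochberg adjustment over the 4 pairs. The ratio of Calr3 to Calr went from a log2 mean of -8.00 ± 0.39 to -3.28 ± 0.40 (± SD, n = 4 per cell type), a difference of 4.72 (exact permutation p = 0.0286, adjusted p = 0.0381). In linear terms the spermatocyte libraries held 0.0030 to 0.0054 counts of Calr3 per count of Calr, and the spermatid libraries 0.079 to 0.14. Calr3 remained the lesser transcript of this pair in every library.

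The order of Pdilt and the broad isomerase transcripts turned over. Spermatocyte libraries held 0.19 to 0.42 counts of Pdilt per count of P4hb, and spermatid libraries held 5.66 to 18.8. The log2 ratio differed by 5.43 (-1.72 ± 0.48 against 3.71 ± 0.82, SD, n = 4 each, exact permutation p = 0.0286, adjusted p = 0.0381). Against Pdia3, the more abundant isomerase, Pdilt went from 0.026 to 0.039 counts per count to 1.03 to 1.47. That log2 ratio differed by 5.20 (-4.90 ± 0.27 against 0.30 ± 0.26, SD, n = 4 each, exact permutation p = 0.0286, adjusted p = 0.0381). The p-values for Calr3 to Calr, Pdilt to P4hb and Pdilt to Pdia3 use the same counts as the rises already given. The ratios to P4hb and to Pdia3 also share Pdilt, so these p-values are not independent support. These 3 pairs show no overlap between the cell types. In normalized counts 66.4% of all tested models show none either, so a lack of overlap alone is common here.

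The balance of Clgn and Canx showed no such difference. There were 10.6, 9.38, 5.91 and 9.22 counts of Clgn per count of Canx in libraries 1 to 4 of spermatocytes, and 6.47, 10.5, 10.9 and 10.6 in those of spermatids. Spermatocyte library 3 and spermatid library 1 were low and the other 6 lay close together. The log2 ratios were 3.10 ± 0.37 and 3.23 ± 0.36 (± SD, n = 4 per cell type), a difference of 0.13 ± 0.26 (SE, exact permutation p = 0.514). Without spermatocyte libraries 3 and 4 the difference was -0.09. Leaving out any library raises the smallest possible p to 0.0571, so the adjusted p of the other 3 pairs was then 0.0762, while their differences stayed between 4.58 and 5.83.

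**Figure D3:**
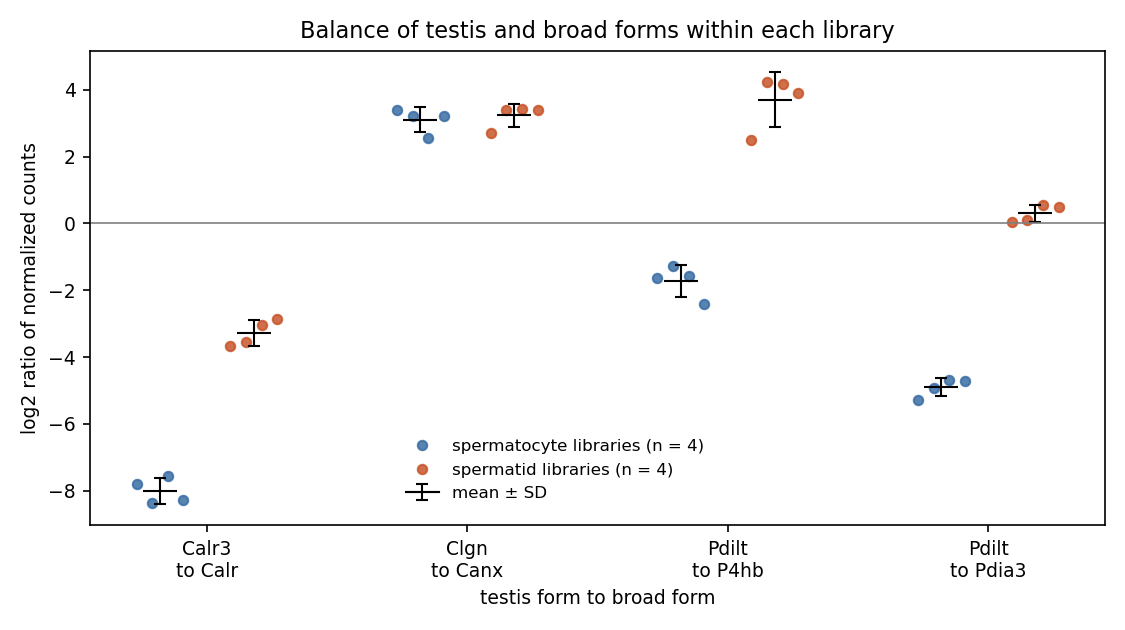
Log2 ratio of normalized counts of a testis form to a broad form in each library, with points for spermatocyte (blue) and spermatid (orange) libraries and black marks for mean ± SD (n = 4 each). Calr3 to Calr, Pdilt to P4hb and Pdilt to Pdia3 are higher in every spermatid library than in any spermatocyte library, and Clgn to Canx overlaps near 3.

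Levels were set side by side between genes after division by annotated exonic length, as normalized counts per kilobase. In spermatocytes the order was Clgn (31192 ± 5445, SD, n = 4), Calr (21607 ± 1832), Pdia3 (11284 ± 2633), Canx (3124 ± 589), P4hb (1356 ± 262), Pdilt (516 ± 98.0) and Calr3 (126 ± 29.7). No pair of neighbours in this order overlapped. In spermatids the order was Clgn (30870 ± 7123), Calr (22627 ± 367), Pdilt (21876 ± 4876), Pdia3 (12715 ± 1752), Calr3 (3531 ± 977), Canx (2762 ± 226) and P4hb (1372 ± 519). Ranges overlapped there for Clgn and Calr, for Calr and Pdilt, and for Calr3 and Canx, so these neighbours were not separated by their spread. Pdilt had moved from the sixth place to the third, and Calr3 from the seventh to the fifth. The lengths are those of GENCODE M21 and may differ from the models the reads were counted on.

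As a share of transcripts per kilobase, Calr3 made up 0.585% ± 0.159 of the calreticulin pair in spermatocytes, against 13.4% ± 3.20 in spermatids (± SD, n = 4 per cell type). Clgn made up 90.7% ± 2.32 and 91.5% ± 2.12 of the calnexin pair. Pdilt made up 3.95% ± 0.573 of Pdilt, Pdia3 and P4hb together in spermatocytes, and 60.3% ± 5.02 in spermatids, where it ranged from 54.2% in library 1 to 65.0% in library 3. The 3 testis forms together held 45.8% ± 3.56 of the RNA of all 7 members in spermatocytes and 58.2% ± 5.41 in spermatids. In spermatocytes nearly all of that share was Clgn. In spermatids it was Clgn and Pdilt, with a smaller part from Calr3.

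Spermatid library 1 stood lowest of its group for Pdilt, Calr3, Clgn and Pdia3 and highest for P4hb. The same library had the lowest summed spermatid markers of its group, 689283 normalized counts, and the highest summed macrophage and blood markers, 7545 against 3718 to 5952. Its summed Sertoli (7601), Leydig (1491), spermatogonial (5261), peritubular (1977) and spermatocyte (53764) markers were also the highest of the group, and its endothelial markers (1586) the lowest. The macrophage and blood markers rose with the cell type as a whole, 8 of 9 called higher, from 803 to 3273 summed counts in spermatocyte libraries. The Sertoli markers fell, 11 of 11 called lower, and so did 7 of 7 Leydig markers, from between 4180 and 8140 to between 236 and 1491. Of 5 peritubular markers 4 were called higher and 0 lower, with sums of 611 to 1115 and 970 to 1977. Of 5 endothelial markers 3 were called higher and 1 lower, with sums of 465 to 540 and 1586 to 1962. Of 8 tested spermatogonial markers 3 were called higher and 0 lower, with sums of 914 to 2098 and 2306 to 5261. No marker of these lists was at 0 in any library. Without spermatid library 1 the log2 fold changes of Pdilt and Calr3 were 5.57 and 4.92. Without spermatocyte libraries 3 and 4 they were 5.33 and 4.94. What part RNA of other cells, or of the other germ cell group, had in the level of any member was not tested. This also holds for the other genes named below.

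The genes with the pattern most like each testis form were found among 8204 named models with a mean of at least 500 normalized counts, by the root mean square difference of centred log2 values over the 8 libraries. For Pdilt they were Ccdc81 (0.060), Ttc23l (0.065) and Atp6v1b1 (0.072), the last of which encodes a subunit of the vacuolar proton pump. Ccdc81 went from 1453 ± 292 to 59664 ± 15477 normalized counts (± SD, n = 4 per cell type), close to Pdilt in level too. For Calr3 they were Spata31d1b (0.074), Chn2 (0.087) and Plb1 (0.110). Spata31d1b went from 940 ± 212 to 25522 ± 6629 (± SD, n = 4 per cell type), and it belongs to a family with similar copies, so its reads are uncertain. For Clgn they were Cep95 (0.063), Phf10 (0.075) and Ppa2 (0.094). Cep95 had 11021 ± 1826 and 10709 ± 2046 (± SD, n = 4 per cell type), a far lower level than that of Clgn.

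Genes that work around these chaperones were followed in 8 lists. Of 135 listed genes 129 were matched and 126 tested, of which 40 were called higher and 18 lower, with a median log2 fold change of 0.25. Selenof, Adam1a, Cmtm2a, Izumo1, Tmem95 and Dcst2 were not analysed here. With equal total reads the split was 31 higher and 29 lower, and with quantile normalization 31 and 31. The 6 lists of ER machinery held 93 tested genes, of which 19 were called higher, 16 lower and 58 not called, with a median of -0.09. These shares were lower in both directions than the 32.5% and 29.8% of all models, a difference that was not tested.

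Quality control genes of the calnexin cycle and of ER-associated degradation were mostly not called: of 17 tested, 1 was called higher, 4 lower and 12 not called, with a median log2 fold change of -0.31. Syvn1, the ubiquitin ligase of ER-associated degradation also called Hrd1, fell from 9489 ± 1155 to 1354 ± 198 normalized counts (± SD, n = 4 per cell type; log2 fold change -2.81, limma adjusted p = 2.8e-08). Uggt2, a relative of the glucosyltransferase that returns unfolded proteins to calnexin, had a log2 fold change of -2.45 (limma adjusted p = 2.4e-07). Edem1, which helps to hand misfolded glycoproteins to degradation, rose from 210 ± 112 to 798 ± 47.7 (± SD, n = 4 per cell type; log2 fold change 2.06, limma adjusted p = 8e-05). Vimp, the most abundant of the list, was at 17318 ± 2485 and 10596 ± 1811 and was not called, but was called lower with equal total reads (-1.15) and with quantile normalization (-1.27). With equal total reads, as with quantile normalization, 7 of the list were called lower. Over all models 32.5% were called higher and 29.8% lower.

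Among other members of the disulfide isomerase family and thiol oxidation genes, 5 of 23 were called higher and 4 lower, with a median of 0.27. The shares over all tested models were 32.5% higher and 29.8% lower. Casq1, the calcium-binding protein calsequestrin of muscle, went from 39.5 ± 11.8 to 715 ± 121 (± SD, n = 4 per cell type; log2 fold change 4.17, limma adjusted p = 7.3e-08). Prdx4, the peroxiredoxin of the ER, had 343, 260, 386 and 200 normalized counts in spermatocytes and 6451, 3962, 4685 and 4399 in spermatids, a log2 fold change of 4.05 (limma adjusted p = 2.6e-08). Unlike Pdilt and Calr3, Prdx4 was highest in spermatid library 1. Qsox2, a sulfhydryl oxidase, fell by 2.11 on the log2 scale, and the isomerase relative Txndc5 had a log2 fold change of -1.99, or -1.35 without spermatocyte libraries 3 and 4. Both Qsox2 (4191 normalized counts) and Txndc5 (1893) were highest in spermatocyte library 3, which had the most Sertoli marker RNA. Ero1lb, an oxidase that recharges disulfide isomerases, was the most abundant of the list, at 18489 ± 3246 and 21506 ± 2900 (± SD, n = 4 per cell type), and was not called (log2 fold change 0.23, limma adjusted p = 0.29).

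Of 18 Hsp70 and Hsp90 chaperones of the ER and their partners, 5 were called higher and 4 lower, with a median of -0.46. All tested models together had 32.5% called higher and 29.8% lower. Hyou1, an Hsp70 relative also called GRP170, fell from 36190 ± 7843 to 5380 ± 1419 (± SD, n = 4 per cell type; log2 fold change -2.76, limma adjusted p = 2.3e-07). Cdnf, a neurotrophic factor of the ER, fell by 2.58. Serpinh1, the collagen chaperone, rose from 32.6 ± 6.35 to 285 ± 78.0 (± SD, n = 4 per cell type; log2 fold change 3.07), and Hspa13, another Hsp70 relative, by 1.97. Serpinh1 had at most 359 normalized counts in any library, and what part RNA of other cells had in its rise was not tested. Hsp90b1, which encodes GRP94 and was the most abundant of the list, was at 97087 ± 22698 and 60341 ± 8800 (± SD, n = 4 per cell type). It was not called at a log2 fold change of -0.66 (limma adjusted p = 0.012), but was called lower with equal total reads (-1.10), quantile normalization (-1.05) and GC correction (-1.02). With equal total reads 3 of the list were called higher and 8 lower.

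Of 8 prolyl isomerases 2 were called higher and 1 lower, against 32.5% and 29.8% of all tested models. Fkbp7 rose from 251 ± 38.3 to 3260 ± 688 (± SD, n = 4 per cell type; log2 fold change 3.68, limma adjusted p = 2.5e-08). Fkbp14 had a log2 fold change of -2.71, or -2.42 without spermatocyte libraries 3 and 4. It was highest in spermatocyte library 3, which had the most Sertoli marker RNA, at 2024 normalized counts against 631 to 1001 in the other spermatocyte libraries. What part Sertoli cell RNA had in this fall was not tested. The other gene called higher was Ppic, which had at most 9.67 normalized counts in spermatocytes, with 1 read in library 4, and 21.5 to 59.1 in spermatids. It passed the filter only through its spermatid values, so it had to differ, and with a filter of 50 normalized counts 1 prolyl isomerase was called higher. The oligosaccharyltransferase, which attaches the sugar chain that calnexin reads, had 2 of 12 subunit genes called higher and 0 lower. The 95% interval lay below 0 for 4 uncalled subunits, Rpn1, Ostc, Tusc3 and Krtcap2, and above 0 for Dad1 (log2 fold change 0.63), all named after their values were seen. Of the alternative catalytic subunits, Stt3a was at 7274 ± 1016 and 6424 ± 464 (± SD, n = 4 per cell type) and was not called (log2 fold change -0.17), while Stt3b went from 41096 ± 8221 to 82034 ± 9760 (± SD, n = 4 per cell type; log2 fold change 1.01, limma adjusted p = 0.00038), which is at the threshold. The Stt3b call was lost in 7 of 21 alternatives: equal total reads (0.58), quantile normalization (0.56), without spermatocyte library 3 (0.88) or 4 (0.99) or both (0.77), and without spermatid library 2 or 3 (0.97 each). Magt1, a low-level subunit gene, had a log2 fold change of 1.22, and its call was lost in 4 of 21 alternatives: equal total reads (0.79), quantile normalization (0.83), GC correction (0.76) and without spermatocyte library 1 (0.95).

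Genes of the unfolded protein response, which is known to raise ER chaperones under stress, were called in both directions. Of 15 tested, 4 were called higher and 3 lower, with a median of 0.22, against 32.5% and 29.8% of all tested models. Creb3l4, a membrane-bound transcription factor known for expression in spermatids and the most abundant of the list, had 1390, 1296, 1382 and 1266 normalized counts in spermatocytes and 30232, 34208, 42528 and 39783 in spermatids. Its libraries lay close together within each cell type and far apart between them, with a log2 fold change of 4.77 (limma adjusted p = 9.5e-10). Its relative Creb3l3 rose by 2.48 from a low level. Atf4, the translation-controlled factor of the response, fell from 6617 ± 1183 to 1732 ± 361 (± SD, n = 4 per cell type; log2 fold change -1.94, limma adjusted p = 2.3e-06), and Atf6b fell by 1.21. With equal total reads 2 were called higher and 5 lower.

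The ADAM3 route list holds ADAM3 and genes whose loss is known to affect it on sperm. Of its 11 tested members 4 were called higher and 2 lower, with a median log2 fold change of 0.21. The background over all tested models was 32.5% higher and 29.8% lower. Adam3 itself had 100536, 100215, 51292 and 80073 normalized counts in spermatocytes and 104696, 144335, 140116 and 132139 in spermatids. Every spermatid library was above every spermatocyte library, and 66.4% of all tested models also had no overlap between the groups. The log2 fold change of Adam3, 0.69, stayed under the threshold of 1 (limma adjusted p = 0.016). Without spermatocyte libraries 3 and 4, which held its lowest values, it was 0.37 (limma adjusted p = 0.092). Adam2, whose product fertilin beta is a known client of calmegin, was at 53447 ± 7939 and 37439 ± 6259 (± SD, n = 4 per cell type) and was not called (log2 fold change -0.52), but was called lower with quantile normalization (-1.01). Like Clgn, both were thus abundant in spermatocytes, when Pdilt and Calr3 were far lower. Pdilt and Calr3 were then at percentiles 77.4 and 58.1 of tested models by mean normalized count.

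Other members of that list rose with spermatids. Ace, whose testis form is a peptidase of the sperm surface, went from 3599 ± 750 to 46809 ± 6817 (± SD, n = 4 per cell type; log2 fold change 3.71, limma adjusted p = 7.7e-09). Pmis2 rose by 5.10 and the protease relative Prss37 by 4.71. Pgap1, which remodels GPI anchors, rose by 3.78, or by 3.14 without spermatocyte libraries 3 and 4. Tex101, a GPI-anchored protein of germ cells that acts on ADAM3, fell from 16166 ± 5370 to 5728 ± 3534 (± SD, n = 4 per cell type; log2 fold change -1.62, limma adjusted p = 0.0017), with spermatid library 1 at 10842, near the spermatocyte range. Tpst2, a tyrosylprotein sulfotransferase, fell by 1.82. Cmtm2b (0.21) and Ly6k (-0.53), a partner of TEX101, were not called, although Ly6k was called lower with quantile normalization (-1.06). Rnase10 was not called at -1.09 (limma adjusted p = 0.13), but was called lower in 4 of 21 alternatives. These were equal total reads (-1.53), DESeq2 (-1.28), without spermatocyte library 3 (-1.73) and without spermatocyte libraries 3 and 4 (-2.02).

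Sperm proteins that are made through the ER and act at the egg or its coats were mostly far higher in spermatids. Of 22 tested genes 17 were called higher and 0 lower, against 32.5% and 29.8% of all tested models. The median log2 fold change was 5.28, and Adam18 (-0.09, not called) was the only gene with a negative value. Spam1, a hyaluronidase of the sperm surface, went from 460 ± 255 to 22924 ± 4837 (± SD, n = 4 per cell type; log2 fold change 5.87, limma adjusted p = 2.1e-07), or by 5.25 without spermatocyte libraries 3 and 4. Hyal5, its neighbour in the family, rose by 5.73. The 5 genes that were not called were Adam5, Adam32, Adam18, Adam1b and Zpbp2, which were chosen here after their values were seen, except Adam5. Their means in spermatocytes lay between 17827 for Adam18 and 104678 for Adam5, against at most 1023 for every called gene but Zpbp (11310). Adam5, the most abundant of the list, had a log2 fold change of 0.60 (limma adjusted p = 0.035), or 0.25 (limma adjusted p = 0.31) without spermatocyte libraries 3 and 4. The spermatocyte level is part of the fold change that sorted these genes, so this contrast in level is a description. Adam6a and Adam6b are near-identical copies, so the split of reads between them is uncertain.

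**Figure D4:**
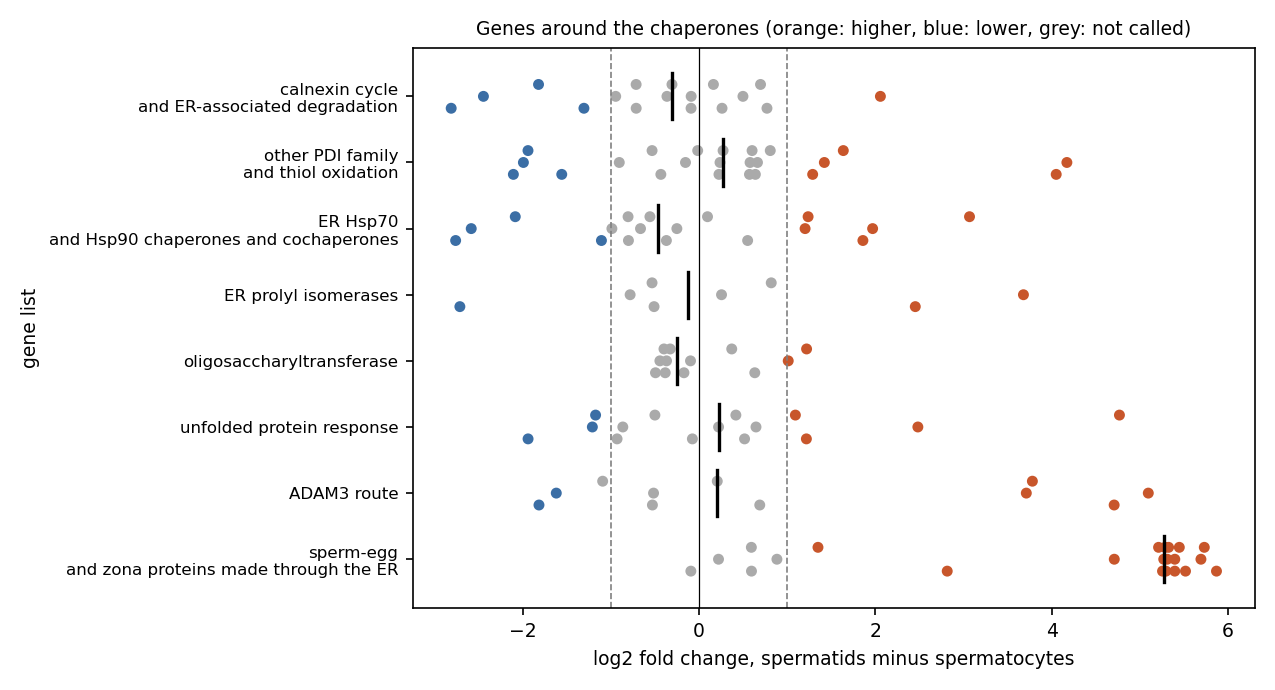
Log2 fold change, spermatids minus spermatocytes, of every tested gene of the 8 lists, with orange for called higher, blue for called lower, grey for not called, a black bar at each list's median and dashed lines at 1 and -1. The 6 ER lists scatter to both sides with medians between -0.46 and 0.27, and the sperm-egg list has its median at 5.28.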

How the data were processed

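RNA of 4 spermatocyte and 4 spermatid libraries was analysed. Each deposited signal value is a read count for a gene model, scaled by the library's size factor. The deposited table's own name announces DESeq normalization, and the submitters' processing notes name STAR 2.4.0, DESeq and mm10. What tool counted the reads, and with which strand setting, is not given in the sources used here. Values were whole multiples of a step in each library: in 100% of those above 0 the quotient was a whole number to within 10% of a step, which gave back the reads. The floor of 3 reads equals 2.42 to 4.50 normalized counts and covers counting error only. A further 8 columns of per-sample values were not used.

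The 28735 models with 10 or more normalized counts in 4 or more libraries were tested as log2(normalized count + 1), which understates the change of low genes, with limma 3.58.1 (trend and robust) in R 4.3.3. Alternatives used other pseudocounts, filters, scalings and libraries, edgeR 4.0.16, DESeq2 1.42.0 and a lowess GC correction. Exact permutation tests were run with scipy 1.17.1. Members, lists, named genes and alternatives were chosen with earlier results of these data known. Besides all members and the ADAM3 route, each list's 2 largest called rises and falls and its most abundant gene were named. Pmis2 and Spaca6 were matched through a RefSeq synonym, with overlapping coordinates. Of the 67 marker genes 66 were matched.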

Additional observations from a re-analysis of the deposited data

Results flagged for a closer look

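Samples that stood apart within a group of 4 were sought in 96 groups, by the gap to the nearest library as a fraction of the group's range, against Dixon's 95% critical value for 4 samples. Chance flags about 1 in 20 groups, and 9 were found. The ratio of Clgn to Canx in spermatids had a gap of 0.934, set by the low library 1. In the other 8, the gap fraction was 0.930 for Ero1lb, 0.857 for Hyal5, 0.877 for Hyou1 and 0.835 for Pgap1 in spermatocytes. It was 0.870 for Atf6b, 0.860 for Fkbp7, 0.905 for Spam1 and 0.866 for Syvn1 in spermatids. Spermatocyte library 3 was the lowest for Ero1lb (13629 normalized counts). Spermatocyte library 4 was the lowest for Hyal5 (90.2 normalized counts) and Pgap1 (12.6) and the highest for Hyou1 (47879). Spermatid library 1 was the lowest for Fkbp7 (2237) and Spam1 (15693) and the highest for Atf6b (1747), and spermatid library 2 was the highest for Syvn1 (1649).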

How the results depend on the processing

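Pdilt (4.95 to 5.57) and Calr3 (4.35 to 4.94) kept their call in all 21 alternatives, and 2 members were called higher and 0 lower in each. No paired analysis was possible because the labels carry no replicate numbers. The uncalled members changed sign without being called: Calr -0.37 and Pdia3 -0.24 with equal total reads, Calr -0.38 and Pdia3 -0.34 with quantile normalization, and P4hb 0.047 with edgeR, 0.025 with DESeq2 and 0.24 after GC correction. Without spermatocyte libraries 3 and 4, Pdia3 was -0.070, P4hb 0.17 and the difference of Clgn to Canx -0.087. The differences of Calr3 to Calr, Pdilt to P4hb and Pdilt to Pdia3 were then 4.81, 5.16 and 5.40, at an exact permutation p of 0.133, the smallest possible there (adjusted p = 0.178). Leaving out each library in turn, Clgn ranged from -0.14 to 0.15, P4hb from -0.27 to 0.13, Calr3 to Calr from 4.58 to 4.87, Pdilt to P4hb from 5.20 to 5.83, Pdilt to Pdia3 from 5.07 to 5.28 and Clgn to Canx from -0.049 to 0.31. List genes called lower, 18 as deposited, were 29 with equal total reads and 31 with quantile normalization, where the median of all models moved to -0.44 and -0.36. Uncalled list genes that changed sign were Cmtm2b (-0.23 with equal total reads, -0.34 with quantile normalization, -0.12 without spermatocyte libraries 3 and 4) and Ero1lb (-0.21 and -0.32 with the first and second of these). The cause was not tested. Over all models, 8563 lower calls became 14333 without a filter, 5470 with a filter of 50, and 3639 over the genes with a GC value after correction (3591 without it, an alternative chosen after seeing the data). Higher calls, 9333 as deposited, were 6060 and 6015 there. The fewest reads of an uncalled member in any library were 2181.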
